A study of Mus musculus with 11 samples.

Results

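The pancreas and the epididymal fat pad of control mice were compared at baseline, as 2 control pancreas libraries against 2 control adipose libraries, with a 3rd control adipose library added as a check. These 5 libraries, of 11 in the series, were chosen by their tissue and condition labels. The mice were wild type male C57BL/6J (C57BL/6 in the labels), labelled as 16 weeks old. They had eaten a chow diet with 10 kcal% fat for 12 weeks and then received saline injections. The mice of the OA-AP group, a model of pancreatitis with obesity and alcohol, had a high-fat diet and received ethanol and are not compared here. No mouse carried a transgene, and the saline and the diet were shared by all 5 libraries. Neither the labels nor the methods say whether a pancreas and an adipose sample with the same number came from the same mouse.

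The exocrine pancreas is made mostly of acinar cells, which synthesize digestive enzymes, load the inactive precursors into zymogen granules and release them towards the ducts when a meal arrives. Islets of hormone-secreting cells are scattered between the acini. White adipose tissue stores triglyceride in large lipid droplets, releases fatty acids by lipolysis and secretes hormones such as leptin and adiponectin. The fat pad also holds endothelial cells, fibroblasts, mesothelium and immune cells. In bulk tissue, fewer cells of a type and less RNA per cell cannot be told apart.

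The control pancreas libraries held 14716716 and 14380578 counts, and the control adipose libraries between 22576100 and 27928097. Only 9 and 8 genes supplied 50% of all counts in the pancreas, against 617 to 648 genes in adipose tissue. Chymotrypsinogen B, Ctrb1, alone held 14.8% and 15.4% of the pancreas counts. The most abundant adipose gene, the carbonic anhydrase Car3, held 2.44% to 2.87%. Acinar enzyme and granule genes took 80.3% and 82.1% of the pancreas libraries, so that 2894491 and 2578610 counts were left for all other pancreas genes, against 22313241 to 27920818 in adipose tissue. A pancreas gene outside that list was thus measured at a lower depth than an adipose gene. Mitochondrially encoded genes held 0.801% and 0.833% of the counts in the pancreas and 5.45% to 7.09% in adipose tissue. Of the counts outside the acinar list, the mitochondrially encoded protein genes held 4.03% and 4.60% in the pancreas and 5.36% to 6.96% in adipose tissue.

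**Figure D1:**
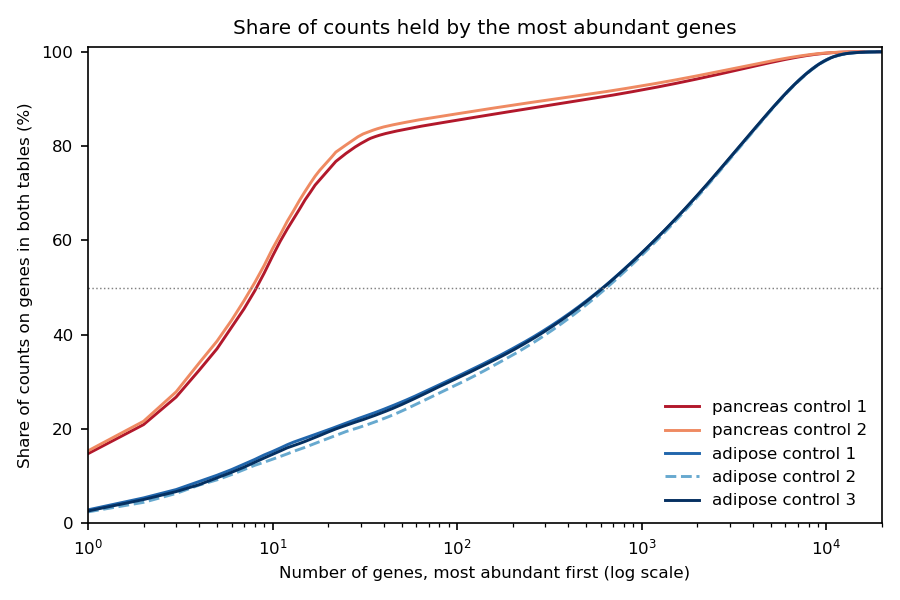
Cumulative share of counts (y axis, %) held by the most abundant genes (x axis, number of genes, log scale) in each of the 5 control libraries, over genes listed for both tissues. The 2 pancreas curves cross 50% at 9 and 8 genes, and the 3 adipose curves at 617, 647 and 621 genes.

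Adipose control 2 stood apart from the other adipose libraries because it held acinar transcripts. The acinar list took 1.16% of its counts (95% exact binomial interval 1.16% to 1.17%, counting error only), against 0.0208% in adipose control 1 and 0.0261% in adipose control 3. In those 2 libraries 98.75% and 98.64% of the list's counts fell on Amy1, the salivary type amylase, and the elastase Cela1, and without these genes the list held 0.0002593% and 0.0003545%. With Amy1 set aside, 39 acinar genes had at least 100 counts per 1000000 of all counts (CPM) in the pancreas. For 34 of these the excess in adipose control 2 lay between 0.5% and 2.7% of the pancreas level, with a median of 1.44% over the 39. Amy1, at 100.8 CPM in the pancreas, had an excess of 32%. Ctrb1 had 34530 counts there and 2 and 3 counts in adipose control 1 and 3.

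Other acinar genes departed from this proportion. Reg2 and Reg3b, which encode secreted lectins of the pancreas, were far above it. Reg2 had 5901 counts in adipose control 2 and stood at 132% of its pancreas level, and Reg3b had 2020 counts and stood at 232%. Reg3a, with 639 counts, stood at 493%. Per 1000 Ctrb1 counts, Reg3b reached 58.5 in adipose control 2, against 0.289 and 0.226 in the control pancreas libraries. The 3 pancreas libraries of the OA-AP mice had 80.4 to 115. By the same measure Reg2 had 170.9 in adipose control 2 against 72.48 to 124.3 in the OA-AP pancreas, and Reg1 had 165 against 92.65 to 134.5. Reg3a had 18.51 against 20.05 to 22.6, Reg3d 9.296 against 18.56 to 21.72, and Reg3g 2.172 against 15.53 to 19.94. The amylase copies Amy2b and Amy2a5 stood far below it, at 0.0514% and 0.0801% of the pancreas level. Amy2a2, Amy2a3 and Amy2a4 had 0 counts in adipose control 2, where the median proportion would have given 218, 1767 and 1302. These copies are nearly identical and reads could be assigned to them differently in the tables of each tissue, which was not tested. Islet hormones were also missing from the trace. At the median acinar proportion Ins1, Ins2, Gcg and Sst would together have given 236 counts, and 1 count was found. Why this library holds acinar transcripts was not tested. The library was left out of the main comparison because of these transcripts.

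**Figure D2:**
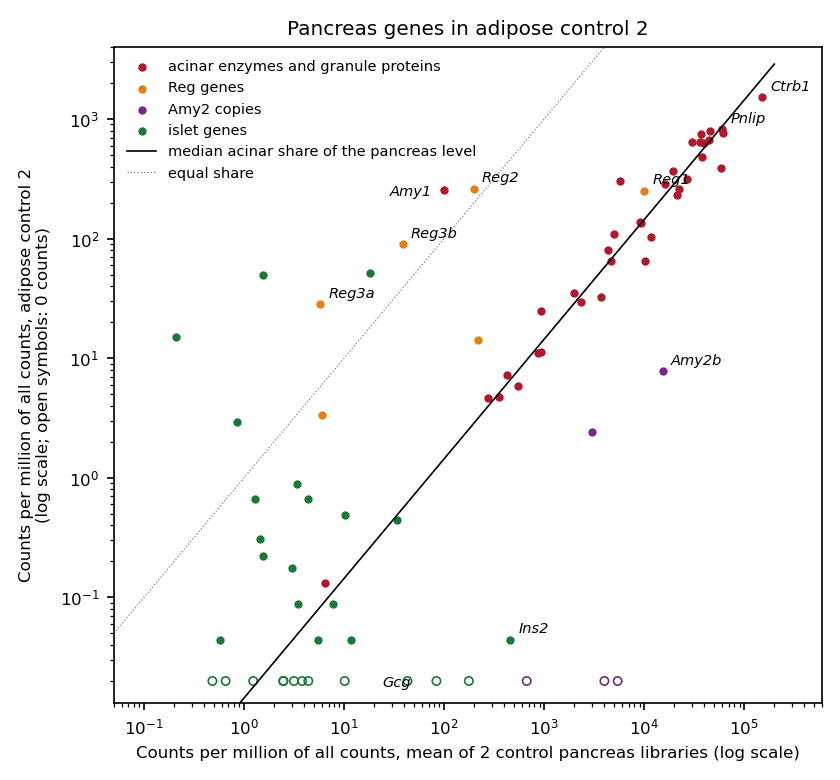
Level of pancreas genes in adipose control 2 (y axis) against their mean level in the 2 control pancreas libraries (x axis), both as CPM on log scales, where each point is a gene and open symbols mark 0 counts. Most acinar points follow the solid line at 1.44% of the pancreas level, whereas Reg2 and Reg3b lie above it, Amy2b below it, and Ins2 has 1 count.

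The tables of the tissues listed different genes, 54532 for the pancreas and 46078 for adipose tissue, and 45260 were in both. The sets of gene models thus differed with the tissue, so that tissue, table and counting cannot be told apart. Of the shared genes 2451 overlapped a gene listed only for the pancreas, where reads may have been lost in 1 table only. The 818 genes listed only for adipose tissue had no position in GENCODE M21, so overlap with them was not checked. Among the genes named below these were Bax, Cd3e, Cdh5, Cebpa, Idh2, Krt8, Lipc, Mgll, Mmd, Mt2, Npr3, Pik3r2, Pik3r3, Pnpla3, Pparg, Rps10, Stt3b, Sycn, Wars and Zg16.

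Of 15832 genes tested, 9261 (58.5%) differed between pancreas and adipose tissue, with a fold of 1.5 or more and an adjusted p below 0.05 in edgeR's quasi-likelihood test. Higher levels were found in the pancreas for 4293 genes (27.1%) and in adipose tissue for 4968 (31.4%). Differences of 4-fold or more were found for 4449 genes, and of 16-fold or more for 1886, of which 827 were higher in the pancreas. All log2 fold changes below are for pancreas over adipose tissue, from edgeR with TMM scaling, with the standard error (SE) and n = 2 libraries for each tissue. Such a fold change is relative to the genes that TMM takes as balanced. Because acinar genes fill the pancreas libraries, scaling by library totals alone moved the median of all tested genes by -2.50, and genes with smaller differences in favour of the pancreas then turned to the adipose side. A gene passed the filter on low counts when either tissue reached it, so members absent from 1 tissue entered through the other, and counts of members describe the lists.

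Acinar genes had the largest fold changes on the pancreas side. All 44 tested members of the list of digestive enzymes and zymogen granule proteins were called higher in the pancreas, beside 27.1% of all tested genes, with a median log2 fold change of 19.41, or 18.66 with the 18 members at 0 counts in adipose tissue placed at their lower bounds. The largest fold changes by the naming rule included those of Ctrb1, Pnlip, Prss2, Cpb1, Zg16, Ctrl, Klk1, Cela1 and Erp27. Ctrb1 (chr8:111686519-111691010, GRCm38) had 2171217 and 2208537 counts in the pancreas and 2 and 3 counts in adipose control 1 and 3, with a log2 fold change of 23.02 ± 0.43 (adjusted p = 6.3e-10). Pancreatic lipase, Pnlip (chr19:58670365-58681786), had 857725 and 901297 against 1 and 5 counts. Trypsinogen Prss2 had 534410 and 515094 against 4 and 2, and the carboxypeptidase Cpb1 554474 and 523953 against 11 and 15. The naming rule took only genes without overlap between the pancreas and adipose libraries of the main fit. Erp27, a protein of the endoplasmic reticulum (ER) related to disulfide isomerases and not itself secreted, had 3765 and 3593 counts against 4 and 4. In adipose control 2, the library with the acinar trace, Pnlip had 18447 counts, Prss2 14577, Cpb1 16838 and Erp27 98.

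Several of the most abundant acinar genes had no count in adipose control 1 or 3. Among them were the elastase Cela2a (906174 and 893088 counts in the pancreas), the trypsinogen Try4 (571516 and 593737), the lipase-related Pnliprp1 (288939 and 270874), the amylase copy Amy2b, which the annotation lists as a pseudogene (225896 and 218433), the granule protein syncollin, Sycn (163354 and 178868), and Prss3 (153078 and 145942). Against a floor of 3 counts per library, Cela2a was at least 3160600-fold higher in the pancreas. Near-identical copies exist among trypsinogens and amylases, so the division of counts among them is uncertain. Amy1 was the exception within the list. It had 1746 and 1194 counts in the pancreas and 4987 and 6982 in adipose tissue, a log2 fold change of 1.36 ± 0.17 in favour of the pancreas with TMM scaling that turned to -1.13 under library totals alone.

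With adipose control 2 added, 11 of the 44 acinar members were called, with a median log2 fold change of 10.09. The spread among adipose libraries was then wide, as the Ctrb1 counts of 2, 34530 and 3 show. The normalised level of all 44 was still higher in both pancreas libraries than in any of the 3 adipose libraries. As shares of all counts, 40 were, and the exceptions were Reg2, Reg3a, Reg3b and Amy1.

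Promoters of abundant acinar genes are shown because the members of this list moved together. A RefSeq promoter entry was found for 35 of the 45 genes. In the 250 bases before the start site, the E-box CACCTG was present on either strand in 22 of the 35 (62.9%), against 19.4% of 27025 genes with an entry. The TATA box TATAAA was present in 17 (48.6%), against 14.3%. The E-box is a binding site of the acinar factor PTF1 among many other factors, and it was present in 64.3% of 14 duct genes, 60% of 10 lymphocyte genes, 29.2% of 24 lipid droplet genes and 27.8% of 18 adipokine genes. TATAAA was also in 50% of 6 erythrocyte genes. The second motif of the PTF1 site, TTTCCC, was in 37.1% of the acinar genes, 36.2% of ribosomal and 42.9% of macrophage genes, against 24.4% of all. The C/EBP motif TTGCNNAA was in 8.33% of lipid droplet, 4.17% of fatty acid synthesis and 22.2% of adipokine genes, against 10.8% of all. A direct repeat of the kind PPARG binds was in 0 promoters of these lists, against 0.0407% of all. Examples follow, from RefSeq on GRCm38.p6, on the strand of the gene, 5′ to 3′, with TATA boxes and E-boxes in capitals.
Cela1, chr15:100687921-100688170, minus strand: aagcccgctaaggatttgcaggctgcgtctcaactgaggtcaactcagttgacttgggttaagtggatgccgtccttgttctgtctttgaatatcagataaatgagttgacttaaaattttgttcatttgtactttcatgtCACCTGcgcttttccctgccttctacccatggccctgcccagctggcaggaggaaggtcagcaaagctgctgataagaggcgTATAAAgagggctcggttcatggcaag
Prss2, chr6:41521526-41521775, plus strand: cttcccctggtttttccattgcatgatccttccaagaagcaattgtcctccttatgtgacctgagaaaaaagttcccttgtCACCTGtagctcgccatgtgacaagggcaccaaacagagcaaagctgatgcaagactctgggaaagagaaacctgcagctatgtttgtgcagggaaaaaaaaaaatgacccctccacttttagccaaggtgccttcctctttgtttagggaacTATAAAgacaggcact
Pnlip, chr19:58670115-58670364, plus strand: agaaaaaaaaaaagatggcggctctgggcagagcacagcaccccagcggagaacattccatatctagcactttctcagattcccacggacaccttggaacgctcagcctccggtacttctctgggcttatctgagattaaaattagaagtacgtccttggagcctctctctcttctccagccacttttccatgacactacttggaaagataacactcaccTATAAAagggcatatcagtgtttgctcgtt
Ctrl, chr8:105933863-105934112, minus strand: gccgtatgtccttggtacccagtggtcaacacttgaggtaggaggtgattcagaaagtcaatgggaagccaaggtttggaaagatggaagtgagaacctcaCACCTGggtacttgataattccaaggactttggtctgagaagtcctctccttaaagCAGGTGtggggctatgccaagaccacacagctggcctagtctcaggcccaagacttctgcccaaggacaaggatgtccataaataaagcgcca
Cela1 and Prss2 held both motifs, with the TATA box close to the start site and the E-box further upstream, Pnlip held the TATA box alone, and Ctrl held 2 E-boxes, 1 on each strand, and no TATAAA. None of these motifs was in the same window of Adipoq, the adiponectin gene, which is absent from the pancreas libraries apart from 1 count, or of Plin1, whereas Cfd held 1 E-box.
Adipoq, chr16:23146286-23146535, plus strand: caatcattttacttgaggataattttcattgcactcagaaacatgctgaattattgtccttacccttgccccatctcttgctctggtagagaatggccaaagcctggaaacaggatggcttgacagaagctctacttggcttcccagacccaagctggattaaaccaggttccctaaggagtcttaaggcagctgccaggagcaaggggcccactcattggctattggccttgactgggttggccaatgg

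Acinar transcription factors and secretagogue receptors showed the same side. Of 20 members tested, 18 were higher in the pancreas and 1 in adipose tissue. Rbpjl, the acinar subunit of PTF1, had 8446 and 7351 counts in the pancreas and 12 and 19 in adipose tissue (log2 fold change 12.37 ± 0.24). Its partner Ptf1a had 174 and 111 counts against 1 and 0. Bhlha15 (Mist1), which organises the secretory apparatus, had 2930 and 3226 against 4 and 4. The cholecystokinin receptor Cckar, through which a meal triggers enzyme release, had 4254 and 3834 counts against 0 and 0, at least 14164-fold higher. Nr5a2, a nuclear receptor of acinar cells, was higher by 5.28 ± 0.24. Xbp1, a factor of the unfolded protein response that many secretory cells use, was higher in the pancreas by 2.46 ± 0.18 with TMM scaling and showed -0.048 under library totals alone. The secretin receptor Sctr, known from ducts, was on the other side, with 1 and 7 counts in the pancreas and 413 and 815 in adipose tissue. In the fit with adipose control 2 and a replicate block, Rbpjl (10.59), Bhlha15 (9.72) and Cckar (9.99) were no longer called.

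Duct genes were divided. Of 19 tested, 11 were higher in the pancreas and 4 in adipose tissue, beside 27.1% and 31.4% of all tested genes. The other 4 were not called, and the list median was 3.32. Under library totals alone 10 were higher in the pancreas and 8 in adipose tissue, and the median was 0.82. The mucin Muc1 (8.73 ± 0.18), the keratins Krt18 (5.25 ± 0.27) and Krt8 (4.03 ± 0.26) and osteopontin, Spp1 (7.92 ± 0.20), led the pancreas side. The duct and progenitor factor Sox9 had 100 and 81 counts in the pancreas and 74 and 117 in adipose tissue, a log2 fold change of 3.32 ± 0.25. The water channel Aqp1 lay on the adipose side, with 146 and 95 counts against 16999 and 12341 (-3.55 ± 0.24), as did Slc4a4, the sodium bicarbonate cotransporter (-3.98 ± 0.42). Krt19, a duct keratin that mesothelium also makes, had 171 and 91 counts against 1230 and 2180 and was not called (-0.31 ± 0.31), although it was called without adipose control 1, at -0.62. The chloride channel Cftr, at 6 and 6 against 24 and 37 counts, was not called either.

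Islet genes were detected in the pancreas and nearly absent from adipose tissue. Of 27 members tested, 24 were higher in the pancreas, and the median of 10.45 became 7.33 with members at 0 placed at their bounds. Insulin Ins2 (chr7:142678656-142743381) had 6222 and 6993 counts in the pancreas and none in adipose control 1 or 3, at least 23318-fold higher. Ins1 had 2406 and 2741 counts, glucagon Gcg 1426 and 1019, somatostatin Sst 162 and 134, and islet amyloid polypeptide Iapp 592 and 661, all against 0. Per kilobase of gene length, the mean level was 346 CPM for Ins2, 174 for Ins1, 56.1 for Gcg and 44.2 for Iapp. The whole islet list held 0.0863% and 0.0930% of pancreas counts.

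Machinery for making and exporting secreted proteins lay on the pancreas side under TMM scaling. For protein entry into the ER and COPII export, 41 of 49 members were higher in the pancreas and 2 in adipose tissue (median 1.51), but under library totals alone the median was -1.01. For ER chaperones and the unfolded protein response, 35 of 42 were higher in the pancreas and 1 in adipose tissue (median 2.23), and the median was -0.29 under library totals alone. Some members stood well beyond this shift. Tmed6, a cargo receptor between ER and Golgi, had 3497 and 3363 counts in the pancreas and 0 and 0 in adipose tissue, at least 12040-fold higher, although it was not called with adipose control 2 and a replicate block. Ero1lb, the ER oxidase of secretory tissues, had 4838 and 4358 counts against 333 and 331 (7.18 ± 0.17). Herpud1 (4.61 ± 0.16), Sel1l (4.29 ± 0.15) and Ssr4 (4.31 ± 0.15), which act in ER-associated degradation and in translocation, and the disulfide isomerase P4hb (3.71 ± 0.15), also kept their side under library totals. The chaperone BiP, Hspa5, had 3977 and 4106 counts against 8202 and 9606, a log2 fold change of 2.26 ± 0.14 that turned to -0.25 under library totals alone. Sec23a (-1.50 ± 0.18), a COPII coat protein, and Stt3b (-0.92 ± 0.12), a catalytic subunit of oligosaccharyltransferase, were higher in adipose tissue.

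Of the chaperone list, 33 genes had a RefSeq promoter entry, and 9 of these (27.3%) held the ER stress response element, searched as CCAAT and CCACG with 9 bases of any kind between them, on both strands of the 250 bases before the start site, against 0.13% of all 27025 genes. The element is bound by ATF6 and XBP1 in textbook accounts. The stretches below, on GRCm38.p6 and the strand of the gene, show it with 5 bases on each side and its fixed letters in capitals, and the letters CGTGG before ATTGG are the same element read from the other strand. Hsp90b1 holds 2 of them.
Calr, chr8:84847070-84847098, minus strand: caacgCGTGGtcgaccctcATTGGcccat
Canx, chr11:50325795-50325823, minus strand: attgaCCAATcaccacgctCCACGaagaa
Creld2, chr15:88819515-88819543, plus strand: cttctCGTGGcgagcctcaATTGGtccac
Derl3, chr10:75893237-75893265, plus strand: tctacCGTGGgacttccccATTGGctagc
Dnajc3, chr14:118937822-118937850, plus strand: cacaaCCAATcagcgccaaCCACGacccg
Hsp90b1, chr10:86705528-86705556, minus strand: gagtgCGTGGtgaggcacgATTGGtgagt
Hsp90b1, chr10:86705633-86705661, minus strand: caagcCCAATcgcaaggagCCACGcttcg
Hspa5, chr2:34772020-34772048, plus strand: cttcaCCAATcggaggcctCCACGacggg
Pdia6, chr12:17266486-17266514, plus strand: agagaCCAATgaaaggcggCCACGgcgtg
Syvn1, chr19:6046527-6046555, plus strand: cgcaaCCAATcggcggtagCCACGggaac
These genes did not share a level between tissues. Derl3 (8.25 ± 0.36), Creld2 (3.82 ± 0.15) and Dnajc3 (2.97 ± 0.13) were higher in the pancreas, although Dnajc3 was at 0.46 and not called under library totals alone. Hspa5, Pdia6 (2.19 ± 0.14), Syvn1 (1.61 ± 0.12) and Hsp90b1 (0.64 ± 0.14) were higher there with TMM scaling and were at -0.25, -0.33, -0.90 and -1.87 under library totals alone. Hsp90b1 was no longer called without pancreas control 1 (0.56) or without adipose control 1 (0.51). Canx (0.27 ± 0.13) and Calr (0.14 ± 0.14) were not called. A match of letters is a description and shows no binding.

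Translation and amino acid supply followed. Of the 78 cytosolic ribosomal protein genes 72 were called higher in the pancreas (median 2.65), although the list held nearly the same share of all counts in each tissue, 1.94% and 1.89% in the pancreas and 1.72% to 1.96% in adipose tissue, and its median was 0.14 under library totals alone. Of the counts outside the acinar list they held 9.84% and 10.5% in the pancreas and 1.72% to 1.96% in adipose tissue. Rpl41 had 8980 and 11062 counts against 6642 and 8242 (3.84 ± 0.20). Rps10 (14 and 17 against 4631 and 5487) and Rpl13a (128 and 84 against 8026 and 9567) went the other way. Ribosomal protein genes have many processed copies in the genome and Rps10 overlaps a gene listed for only 1 tissue, so these levels are uncertain. Of 20 aminoacyl tRNA synthetases 15 were higher in the pancreas (median 1.23, and -1.28 under library totals alone), led by Wars for tryptophan (3.52 ± 0.13).

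Amino acid metabolism and transport had 26 of 38 members higher in the pancreas and 6 in adipose tissue (median 2.08, and -0.42 under library totals alone). Gatm, which makes the creatine precursor guanidinoacetate from glycine, had 5262 and 4733 counts in the pancreas and 184 and 176 in adipose tissue (8.19 ± 0.18). Gamt, the next enzyme of creatine synthesis, was higher by 5.23 ± 0.33. The glutamine transporter Slc38a3 was higher by 10.90 ± 0.22, or 8.98 and not called with adipose control 2 and a replicate block, and cystathionine beta-synthase, Cbs, by 6.06 ± 0.15. Glutamine synthetase, Glul, was on the adipose side with 304 and 250 counts against 51883 and 48770 (-4.12 ± 0.15), and so was the amino acid transporter Slc43a1 (-5.81 ± 0.42).

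**Figure D3:**
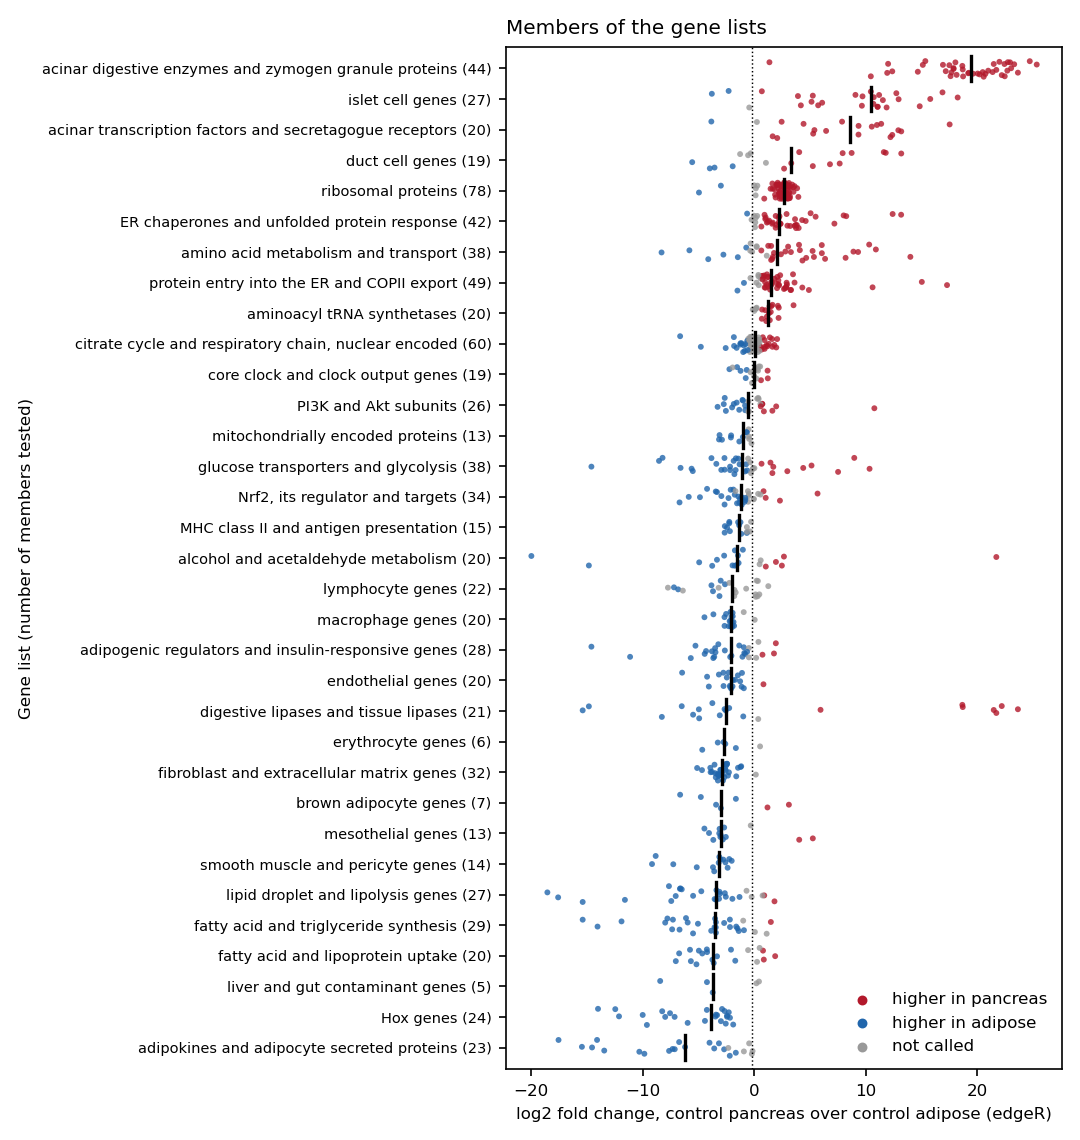
Log2 fold change of each tested gene (points, x axis, control pancreas over control adipose, 2 libraries each) in each gene list (y axis, with the number tested), coloured by call, where black ticks are list medians and the dotted line is the median of all tested genes, -0.17. Acinar, islet and secretory lists lie to the right and adipocyte, Hox and stromal lists to the left, and points of genes at 0 counts in 1 tissue depend on the prior count of the fit.

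Adipose tissue was set apart by adipocyte genes that were missing from the pancreas. The defining markers Adipoq, Plin1, Lep and Cidec gave together 0 and 1 counts in the pancreas libraries, whereas at the adipose level they held 8765 CPM. The exact Poisson upper limits of 3.69 and 5.57 counts correspond to 0.00286% and 0.00442% of the adipose level, covering counting error only. Of 23 adipokines and secreted proteins tested, 18 were higher in adipose tissue, beside 31.4% of all tested genes, 5 were not called and none was higher in the pancreas. The median of -6.19 became -4.00 with members at 0 placed at their bounds. Adipsin, Cfd (chr10:79890853-79892655), the complement protease that fat cells secrete, had 345107 and 412351 counts in adipose control 1 and 3 and 1 and 2 in the pancreas. This is a ratio of 24000 between normalised levels, with a 95% counting interval of 8220 to 116000. Adiponectin, Adipoq (chr16:23146536-23158028), had 80503 and 110231 counts against 0 and 1. Resistin, Retn (42512 and 43835), and leptin, Lep (13139 and 6804, with 10561 in adipose control 2), had no count in the pancreas, and haptoglobin, Hp, had 75800 and 48882 against 5 and 8 (-9.84 ± 0.41).

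The 10 largest fold changes on the adipose side among genes with more than 3 counts in the pancreas were those of Car3, Hp, Npr3, Mmd, Aoc3, Serpina3n, Gapdh, Tusc5, Chrdl1 and Sncg. Car3 (chr3:14863512-14872523) had 740830 and 733981 counts against 1 and 10. Npr3, the clearance receptor for natriuretic peptides, had 14448 and 9712 against 2 and 2. The amine oxidase Aoc3 had 49069 and 42869 against 10 and 9. Tusc5, which takes part in the traffic of the insulin-responsive glucose transporter, had 7917 and 12874 against 4 and 4. Here too the naming rule took only genes without overlap between the tissues. Of the genes with 0 counts in both pancreas libraries, the most abundant in adipose tissue were Cyp2e1, Cidec, Plin1, Retn, B3galt2 and Lep. Adipose control 2 had 549857 counts for Car3 and 74037 for Adipoq, of the same order as the other adipose libraries.

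Gapdh, the glycolytic enzyme often used as a reference gene, had 6 and 6 counts in the pancreas and 22478 and 24266 in adipose tissue (-8.53 ± 0.21). Other enzymes of glycolysis were present in the same pancreas libraries, such as Aldoa with 1006 and 1005 counts. The OA-AP pancreas libraries gave 20, 12 and 51 Gapdh counts, and adipose control 2 gave 17649. Gapdh (chr6:125161715-125166467) has many near-identical processed copies in the genome, so its count is uncertain where reads could be assigned to them. Actb, a reference gene as well, was present in every library, with 607 and 469 counts in the pancreas and 35859 and 28992 in adipose tissue (-2.53 ± 0.17).

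Lipid droplet and lipolysis genes were higher in adipose tissue for 22 of 27 members tested and in the pancreas for 2 (median -3.42). The droplet proteins Cidec (77587 and 95507 counts) and Plin1 (44942 and 43417) had no count in the pancreas. Against 3 counts per library, these genes were at least 2725-fold and 1398-fold higher in adipose tissue. Adipose triglyceride lipase, Pnpla2, had 210 and 193 counts in the pancreas and 78734 and 110895 in adipose tissue (-5.47 ± 0.19), and hormone-sensitive lipase, Lipe, 58 and 46 against 50230 and 47852 (-6.49 ± 0.18). Adipose control 2 had 84449 counts of Pnpla2 and 36341 of Lipe, and the tissues did not overlap. Plin3, a droplet protein of many tissues, was higher in the pancreas by 0.90 ± 0.13, which turned to -1.61 under library totals alone.

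Fatty acid and triglyceride synthesis had 25 of 29 members higher in adipose tissue and 1 in the pancreas (median -3.50). Stearoyl-CoA desaturase, Scd1, had 183 and 188 counts in the pancreas against 455448 and 400182 (-7.78 ± 0.23). Pck1, which supplies glycerol for triglyceride, had 0 and 1 against 63710 and 122514. Fatty acid synthase, Fasn, had 220 and 206 against 106059 and 38817 (-5.04 ± 0.63, adjusted p = 0.0018), with 16983 counts in adipose control 2, and its call was lost in the fit with that library and a replicate block. ATP citrate lyase, Acly, had 16694, 3835 and 4947 counts in adipose control 1, 2 and 3 and was not called, although it was called without adipose control 3, at -1.63. Fasn and Acly varied several fold among control adipose libraries, whereas their levels in the pancreas pair were close.

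For fatty acid and lipoprotein uptake 14 of 20 members were higher in adipose tissue and 3 in the pancreas (median -3.69). The fatty acid carrier Fabp4 had 279 and 378 counts in the pancreas and 440344 and 469404 in adipose tissue (-7.02 ± 0.26), lipoprotein lipase, Lpl, 946 and 879 against 294634 and 302211 (-4.96 ± 0.17), and the fatty acid translocase Cd36 234 and 228 against 117058 and 131758 (-5.67 ± 0.17). Angptl8, an inhibitor of lipoprotein lipase when bound to its partner, was higher in the pancreas by 1.88 ± 0.23 with TMM scaling and showed -0.63 under library totals alone.

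The lipases of the body were split between the tissues. Of 21 tested, 13 were higher in adipose tissue and 7 in the pancreas, beside 31.4% and 27.1% of all tested genes. The enzymes secreted into the gut lumen were on the pancreas side, with Cel, the bile salt-dependent lipase, at 558718 and 548556 counts against 0 and 3, colipase, Clps, at 325360 and 328005 against 0 and 1, beside Pnlip and Pnliprp1. The enzymes that act inside the fat cell or at the capillary wall were on the adipose side, with Lpl, Pnpla2, Lipe and the monoglyceride lipase Mgll (-3.09 ± 0.15). Hepatic lipase, Lipc, the only pancreas-side member outside the digestive group, had 18 and 14 counts against 4 and 1. With adipose control 2 added, Lipc was the one pancreas-side lipase called, and the log2 fold changes of Pnlip (10.28), Cel (10.38) and Clps (10.50) were no longer called.

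**Figure D4:**
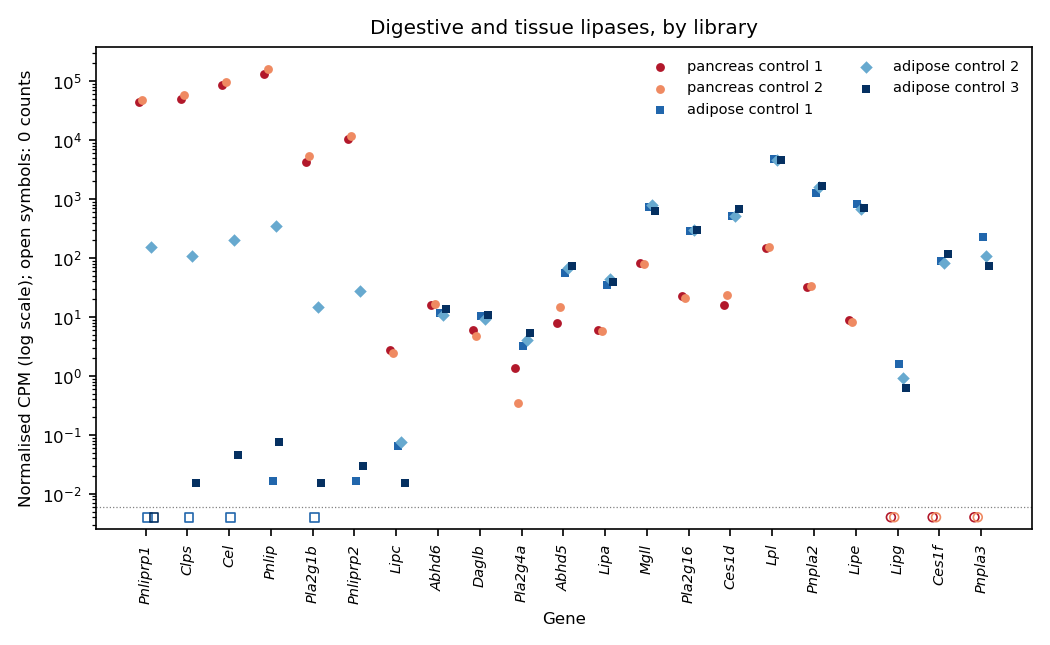
Normalised CPM (y axis, log scale) of the 21 tested lipase genes (x axis) in each of the 5 control libraries, where open symbols under the dotted line mark 0 counts. The digestive lipases at the left have 0 to 5 counts in adipose control 1 and 3 and intermediate levels in adipose control 2, and Lpl, Pnpla2 and Lipe at the right are higher in all 3 adipose libraries.

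Adipogenic regulators and insulin-responsive genes had 21 of 28 members higher in adipose tissue and 3 in the pancreas (median -2.10). Pparg, the master regulator of fat cells, had 14 and 24 counts in the pancreas and 7147 and 8302 in adipose tissue (-5.26 ± 0.23), and Cebpa, its partner, 232 and 170 against 24619 and 25677 (-3.58 ± 0.15). Klf15, a metabolic transcription factor, was higher in the pancreas by 1.77 ± 0.15 and showed -0.74 under library totals alone. Of the brown adipocyte genes 8 of 15 had too few counts to be tested, and Ucp1, the uncoupling protein that defines brown fat, had 0 and 0 counts in the pancreas and 1, 0 and 2 in adipose tissue. The 7 that were tested were 5 on the adipose side and 2 on the pancreas side. Without pancreas control 1, or without adipose control 3, the number on the adipose side was 3.

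Different members of the same families of glucose handling lay on different sides. Of 38 genes for glucose transport and glycolysis, 22 were higher in adipose tissue, 10 in the pancreas and 6 were not called (median -1.07). The shares over all tested genes were 31.4% in adipose tissue and 27.1% in the pancreas. The insulin-responsive transporter Slc2a4 (GLUT4) had 6478 and 4649 counts in adipose tissue and none in the pancreas. Slc2a2 (GLUT2) had 48 and 50 counts in the pancreas and 14 and 15 in adipose tissue (5.13 ± 0.36), and the liver type pyruvate kinase Pklr 30 and 26 against 0. The regulator of glycolytic flux Pfkfb3 was on the adipose side, with 65 and 59 counts against 26349 and 37747 (-5.61 ± 0.20), as was lactate dehydrogenase, Ldha (-2.66 ± 0.16).

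Nuclear genes of the citrate cycle and the respiratory chain were even under TMM scaling, with 15 of 60 higher in each tissue and 30 not called (median 0.05), whereas under library totals alone none was higher in the pancreas and 58 were higher in adipose tissue (median -2.46). Beside 58.5% called among all tested genes, 30 of 60 were called here. Idh2 (1.98 ± 0.13, and -0.53 under library totals alone) and Idh3a (-2.55 ± 0.20), both isocitrate dehydrogenases of the mitochondrion, lay on opposite sides under TMM scaling. Of the 13 mitochondrially encoded genes 9 were higher in adipose tissue and 4 were not called (median -1.02), and 5 were called without pancreas control 1. The transcript mt-Nd4 had 9166 and 9070 counts against 187835 and 201762 (-1.02 ± 0.15), and was not called with adipose control 2 and a replicate block (-0.84).

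Alcohol and acetaldehyde metabolism was examined because the model of the series uses ethanol. Of 20 members tested, 13 were higher in adipose tissue and 5 in the pancreas (median -1.52), beside 31.4% and 27.1% of all tested genes. Cyp2e1 (chr7:140763739-140774987), the cytochrome P450 that oxidizes ethanol, had 178926 and 291531 counts in adipose control 1 and 3, 149389 in adipose control 2, and none in either pancreas library. It was at least 7366-fold higher in adipose tissue. Catalase, Cat (-3.34 ± 0.18), and mitochondrial aldehyde dehydrogenase, Aldh2, with 877 and 763 counts against 26444 and 30869 (-1.73 ± 0.13), were on the same side. Aldh7a1 was higher in the pancreas by 2.66 ± 0.13 and by 0.15 under library totals alone, where it was no longer called. Cel, which forms fatty acid ethyl esters from ethanol beside its role in digestion, was on the pancreas side.

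Of the oxidative stress genes controlled by Nrf2, 21 of 34 were higher in adipose tissue, 4 in the pancreas and 9 were not called (median -1.20). Over all tested genes 31.4% were higher in adipose tissue and 27.1% in the pancreas. Nfe2l2, which encodes Nrf2, had 114 and 117 counts in the pancreas and 2791 and 3374 in adipose tissue (-1.34 ± 0.14). The heme oxygenase Hmox1 had 14 and 15 against 1222 and 1119 (-2.94 ± 0.24). In adipose control 2 these had 2550 and 1168 counts, near those of the other adipose libraries. The plasma glutathione peroxidase Gpx3 (-4.86 ± 0.42) and the cellular one, Gpx1 (-1.42 ± 0.12), were on the adipose side. The cystine transporter Slc7a11 was on the pancreas side, with 56 and 53 counts against 12 and 10 (5.67 ± 0.37), as was the glutathione transferase Gstp1 (2.31 ± 0.14, and -0.20 under library totals alone).

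PI3K and Akt genes, whose pathway the study examined, were mixed. Of 26 tested, 12 were higher in adipose tissue, 7 in the pancreas and 7 were not called (median -0.52). Among all tested genes 31.4% were higher in adipose tissue and 27.1% in the pancreas. Under library totals alone 24 of the list were higher in adipose tissue and 1 in the pancreas (median -3.03). The kinases Akt1 and Akt2 lay on opposite sides under TMM scaling. Akt1 had 1516 and 1342 counts in the pancreas and 3523 and 4162 in adipose tissue (1.97 ± 0.13, and -0.54 under library totals alone). Akt2, the isoform of the insulin response in fat, had 695 and 537 against 9163 and 13702 (-0.82 ± 0.17), and without adipose control 3 it was no longer called, at -0.56. Among catalytic subunits Pik3cb (-3.28 ± 0.32), Pik3cd (-1.01 ± 0.23) and Pik3cg (-2.73 ± 0.44) were higher in adipose tissue, and Pik3ca (-0.52 ± 0.13) had a fold change under 1.5, although it was called without pancreas control 2, at -0.64. The regulatory subunits Pik3r1 (-1.05 ± 0.12), Pik3r3 (-2.54 ± 0.35), Pik3r5 (-1.98 ± 0.31) and Pik3r6 (-3.25 ± 0.38) were higher in adipose tissue, and Pik3r2 (0.71 ± 0.13) in the pancreas, with -1.79 under library totals alone. Of the apoptosis genes the study followed, Bcl2, which protects cells, had 44 and 37 counts against 654 and 763 (-0.73 ± 0.19), and without adipose control 3 it was no longer called, at -0.67. Bax, which promotes death, had 84 and 59 against 539 and 609 and was not called (0.38 ± 0.19).

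Hox genes, which carry the positional identity of mesodermal tissues, were found mainly in adipose tissue. Of 39, 24 had enough counts to be tested and all 24 were higher in adipose tissue, beside 31.4% of all tested genes. In the pancreas 23 of the 39 had 0 counts, and members passed the filter on low counts through adipose tissue. The number on the adipose side was thus largely set by the filter and describes the list. The median was -3.86, or -2.88 with members at 0 at their bounds. Hoxc8 (chr15:102990607-102994111) was the most abundant, with 3279 and 4190 counts in adipose control 1 and 3, 3350 in adipose control 2 and none in the pancreas, which is at least 117-fold. Hoxc6 (999 and 1567) and Hoxc4 (896 and 1129) also had none, and Hoxa7 had 909 and 1142 against 0 and 1. Hoxb4 was the gene with the most Hox counts in the pancreas, 4 and 11 against 406 and 453 (-2.43 ± 0.39). The tested genes belong to groups 1 to 9 of the clusters. All members of groups 10 to 13 on the list, with Hoxb1, Hoxd1 and Hoxd3, had too few counts to be tested.

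**Figure D5:**
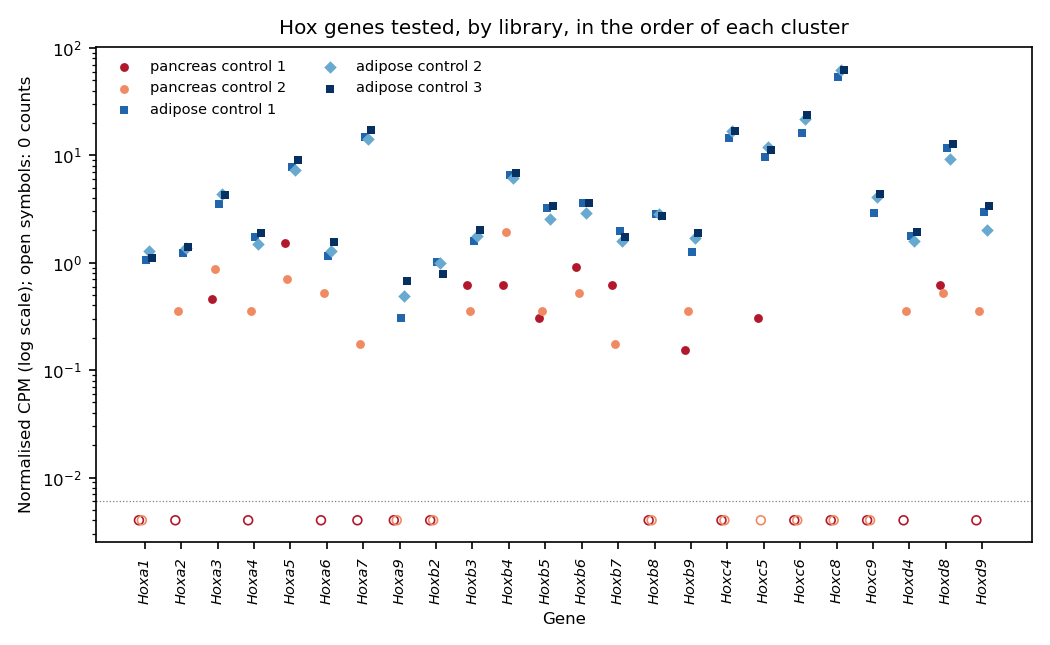
Normalised CPM (y axis, log scale) of the 24 tested Hox genes (x axis, by cluster and group) in each of the 5 control libraries, where open symbols mark 0 counts. All 3 adipose libraries lie above both pancreas libraries for each of these genes, and Hoxc8 is the highest.

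Genes of other cell types that the tissues hold were mostly higher in adipose tissue. This was so for 31 of 32 fibroblast and matrix genes, all 14 smooth muscle and pericyte genes, 19 of 20 endothelial genes and 18 of 20 macrophage genes, with medians of -2.92, -3.15, -2.11 and -2.07. The matrix protein Sparc had 267 and 215 counts in the pancreas and 62069 and 67259 in adipose tissue (-4.68 ± 0.15). Smooth muscle actin, Acta2, had 7 and 10 against 2344 and 4071. The endothelial markers Pecam1 (-1.94 ± 0.17) and Cdh5 (-2.76 ± 0.16) were on that side too, whereas Plvap, of fenestrated endothelium, was higher in the pancreas by 0.83 ± 0.17 and showed -1.68 under library totals alone. Of 13 mesothelial genes 10 were higher in adipose tissue and 2 in the pancreas, the keratins Krt18 and Krt8 that duct cells share. The markers Msln and Upk3b had 35 and 26, and 108 and 50, counts in the pancreas and 2069 and 3209, and 4917 and 9666, in adipose tissue.

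Immune genes were sparse in the control pancreas. The macrophage markers Cd68 (31 and 15 counts) and Adgre1 (40 and 6) were below adipose tissue (1436 and 1604, and 951 and 1013). The macrophage list held 0.00971% of counts in pancreas control 1 and 0.00474% in pancreas control 2, and 0.157% to 0.196% in adipose tissue. Of the counts outside the acinar list it held 0.04937% and 0.02645% in the pancreas and 0.1568% to 0.1988% in adipose tissue. Of 22 lymphocyte genes 7 were higher in adipose tissue and 15 were not called, a share near the 31.4% of all tested genes. The number on the adipose side was unstable, from 1 without pancreas control 1 and 3 without adipose control 3 to 12 with adipose control 2 and a replicate block and 22 under library totals alone. The T cell marker Cd3e had 4 and 2 counts against 26 and 28 and was not called. The B cell markers Cd79a and Ms4a1 had 52 and 121, and 27 and 74, counts in adipose control 1 and 3, but 266 and 251 in adipose control 2. Of 15 genes of antigen presentation, 11 were higher in adipose tissue (median -1.35). The epididymal genes Crisp1 and Lcn5 had no count in any library, and albumin, Alb, had 4 and 3 counts in the pancreas and 425 and 551 in adipose tissue. Hemoglobin Hba-a1 had 35 and 71 against 4290 and 6621 counts.

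Of 19 clock genes, 3 were higher in the pancreas, 5 in adipose tissue and 11 were not called (median 0.02). The shares over all tested genes were 27.1% in the pancreas and 31.4% in adipose tissue. Under library totals alone all 19 were higher in adipose tissue (median -2.50), and without pancreas control 2 the count was 1 on the pancreas side and 5 on the adipose side (median -0.34). Nr1d1, the repressor of the negative loop, had 477 and 364 counts against 12237 and 13279 (-1.53 ± 0.13).

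Libraries of a tissue were alike beside the distance between tissues. Across the tested genes, Pearson's r of log2 normalised counts was 0.983 within the pancreas, 0.978 to 0.993 within adipose tissue and 0.622 to 0.673 between them, as a description over genes of the same libraries. Within the pancreas, the genes with the largest difference between the 2 libraries at 20 CPM or more were Rpl30-ps10, Gm14303, Gm10076, Igfbp6 and Fn1. Fibronectin, Fn1, had 226 and 70 counts and Igfbp6, a binding protein for insulin-like growth factor, 208 and 63. Other stromal and macrophage genes were higher in pancreas control 1 as well, such as Col3a1 (333 and 173) and Lyz2 (359 and 134). Within adipose control 1 and 3 these genes were Gm10925, Acly, Pnpla3, Mt2 and Acsm3. Pnpla3, a lipase whose level follows carbohydrate intake, had 14018 and 4892 counts, and the metallothionein Mt2 5857 and 2113.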

How the data were processed

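Bulk RNA sequencing was done on Trizol-extracted RNA of pancreas and epididymal fat. The authors trimmed reads with Trim Galore (0.6.6) and fastp (0.20.1), aligned them to GRCm38 with STAR, and assigned them to genes with featureCounts (2.0.1). The authors deposited whole-number read counts without normalization, separately for each tissue. Strand setting and annotation release of each table are not given in the sources used here. The tables were joined on the gene identifier, which kept 45260 genes. Genes in only 1 table held 0.13% of pancreas counts and 0.04% of adipose counts and were not tested. Among the joined genes, 97.97% had the same span as in GENCODE M21. No column of per-sample values was left without a sample.

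Pancreas control 1 and 2 were compared with adipose control 1 and 3 by edgeR (4.0.16, R 4.3.3), with TMM scaling, its filter on low counts by tissue, a robust quasi-likelihood fit and Benjamini-Hochberg adjustment over 15832 genes. Calls needed an adjusted p below 0.05 and a fold of 1.5 or more. TMM factors were 0.444 and 0.396 for the pancreas and 2.386 and 2.388 for adipose tissue. With 2 libraries for each tissue the residual degrees of freedom were 2, and an exact permutation test of a single value cannot go below a two-sided p of 0.333. The labels do not say that replicates were separate mice, so p-values measure the spread between these samples. Counts within the pancreas differed by more than sampling noise (chi-square per degree of freedom 7.00), as did those within adipose tissue (31.4 to 50.0). No pair of libraries thus differed by sampling noise alone, which cannot tell whether samples came from the same mouse. The fit was tested on simulated counts with changes added to 200 genes. At a log2 fold change of 1 the edgeR fit recovered 44 of 50, at 2 it recovered 100 of 100, and it made 10 false calls among 15194 genes. Apart from the added changes, both tissues were drawn from the same means with 1 dispersion, whereas 58.5% of genes were called in the real comparison. The simulation therefore gives no error rate for these data.

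Levels per kilobase are CPM (counts per 1000000 of all counts) divided by gene length. Bounds on folds against 0 counts use a floor of 3 counts per library, and ratios against 1 to 3 counts carry a 95% counting interval. Promoters came from RefSeq (GRCm38.p6), with 6 motifs searched on both strands of 250 bases. Medians of lists are over tested members.

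The libraries, the 34 gene lists and the tests were chosen with earlier results of these data known. Genes were named by a fixed rule. It took the 10 largest fold changes in each direction among called genes without overlap between the tissues. These genes also had at least 50 CPM in the higher tissue and more than 3 counts in the lower tissue. Further genes were the 6 most abundant at 0 counts in the other tissue. Up to 5 called members of each list were taken in its main direction and up to 3 in the other. The 5 genes with the largest spread within each tissue at 20 CPM were taken as well. Uncalled members needed for their role, and the Nrf2, PI3K, Akt and apoptosis genes that the study followed, were added. A few genes that the rule takes are not reported here. Genes named outside this rule, among them Actb, Derl3, Creld2, Dnajc3, Hspa5, Hsp90b1, Pdia6, Syvn1, Reg2, Reg3a, Reg3b, Amy1, Amy2a5, Ptf1a, Sox9, Sst, Pparg, Slc2a2, Slc2a4, Lipc, Hoxb4, Cd68 and Adgre1, were chosen after their values were seen. Alternatives were other scalings, filters and fold thresholds, the DESeq2 test (1.42.0), adipose counts thinned to the pancreas depth outside the acinar list, each library left out, adipose control 2 added, and, chosen after seeing the data, genes affected by the annotation left out.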

Additional observations from a re-analysis of the deposited data

Results flagged for a closer look

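Adipose control 2 drew attention because the acinar list took 1.16% of its counts, against 0.0208% and 0.0261% in the other control adipose libraries. Its Reg3b level was 58.5 per 1000 Ctrb1 counts, against 0.289 and 0.226 in the control pancreas libraries. Both are signals in a library that the main comparison left out.

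Among the 9272 genes listed only for the pancreas, which entered no comparison, 1810028F09Rik had 9240 and 8859 counts in pancreas control 1 and 2, more than any other such gene. The next was the pseudogene Rpl17-ps3, with 1044 and 802 counts. Of these genes 400 are annotated as protein coding.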

How the results depend on the processing

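Scaling had the largest effect of the settings tried. Under library totals alone 14784 genes were called, 1051 higher in the pancreas and 13733 in adipose tissue, so that the share of calls on the pancreas side was 7.11% in place of 46.4%. Lists with more members higher in the pancreas numbered 4 in place of 9 of 34. List medians reversed for ER entry (-1.01), ER chaperones (-0.29), tRNA synthetases (-1.28) and amino acid metabolism (-0.42), and those of the citrate cycle (-2.46) and clock (-2.50) lists, near 0 with TMM, also changed sign. Log2 fold changes of Amy1 (-1.13), Bax (-2.12), Cd3e (-2.25), Idh2 (-0.53), Pik3r2 (-1.79), Xbp1 (-0.048), Cftr (-1.44), Hspa5 (-0.25), Hsp90b1 (-1.87), Calr (-2.37), Canx (-2.24), Pdia6 (-0.33), Syvn1 (-0.90), Plin3 (-1.61), Angptl8 (-0.63), Klf15 (-0.74), Gstp1 (-0.20), Akt1 (-0.54) and Plvap (-1.68) also reversed. With no filter on low counts the median of epididymis genes reversed to 0.13, over more genes tested.

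Leaving out each library in turn gave 8310 to 8613 called genes (3987 to 4047 in the pancreas, 4291 to 4626 in adipose tissue), 9 to 10 lists with more members higher in the pancreas, and 152 to 159 of the genes named here called, where 155 were called with all 4 libraries. The DESeq2 test called 8509 genes, with 614 left without an adjusted p, and thinned adipose counts gave 7976. Leaving out genes that overlap a gene listed only for the pancreas gave 8341. With adipose control 2 added, 9469 genes were called (4321 and 5148).

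Whether same-numbered libraries came from 1 mouse is not stated. Their deviations had a correlation of -0.027, but with 2 control pancreas libraries this value cannot tell whether they were pairs. In the main fit the tissues shared only replicate number 1, so the replicate numbers were not used as pairs. With adipose control 2 and a replicate block, 8529 genes were called (4004 and 4525), 16 of 44 acinar genes among them, and Erp27 (9.93) was not called. The causes of these changes were not tested. Depth outside the acinar list, 2578610 counts in the shallower pancreas library, limits what can be detected there.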

Other observations

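Adipose control 2 was also high in a few other genes, chosen after their values were seen. The GTPase Iigp1 had 1055, 5201 and 1029 counts in adipose control 1, 2 and 3, Gbp4 had 1217, 6751 and 1707, and Ifit3 had 474, 1749 and 428. The immunoglobulin segment Igkv4-63 had 0, 960 and 1 counts, and the lymphocyte list held 0.0311%, 0.0840% and 0.0164% of counts. Sfrp5, a secreted inhibitor of Wnt signalling, had 378, 2142 and 299 counts.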
